A study of Saccharomyces cerevisiae with 16 samples.

Results

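RNA abundance 8 h after depletion of eIF4E was measured in 4 of the 16 libraries of the series, taken by their labels as the RNA-seq libraries of that time. All came from BY4742, a haploid laboratory strain of Saccharomyces cerevisiae of mating type alpha, in which eIF4E carried an auxin-inducible degron (eIF4E-AID). 2 libraries came from cells given 500 µM indole-3-acetic acid (IAA, an auxin) for 8 h and 2 from cells given the solvent DMSO for 8 h, all grown in YPD, a rich medium, and the labels call the libraries of a group biological replicates. The RNA came from whole cell lysates and was freed of ribosomal RNA with a depletion kit, without selection for poly(A), so that non-coding RNA was counted as well. Both groups carried the tag, and no library of an untagged strain given IAA was analysed here, so an effect of IAA itself and an effect of eIF4E loss cannot be told apart. Fewer cells of a type and less RNA per cell cannot be told apart either, since the libraries are of bulk RNA and each is read relative to its own total.

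eIF4E, the product of CDC33, binds the cap at the 5′ end of mRNAs and, together with eIF4G and the helicase eIF4A, brings the small ribosomal subunit to them. In a degron strain IAA joins the tagged protein to a plant F-box protein called TIR1, which has no relation to the yeast gene of that name described further on. Gcn4 is the transcription factor that activates genes of amino acid synthesis in starved yeast, and short open reading frames upstream in its own mRNA hold back its translation. Pcl5 is the cyclin that, with the kinase Pho85, marks Gcn4 for degradation. Aro80 activates ARO9 and ARO10, whose products start the breakdown of aromatic amino acids by the Ehrlich pathway.

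Promoter sites of 7 genes that changed are printed here to show what a match looks like, and the genes were picked because they hold one. Capitals mark the Gcn4 core motif TGACTC, or its reverse complement, in the first 4 sequences, and the Aro80 motif CCG, 7 bases of any kind, CCG, on either strand, in the last 3. Sequences run 5′ to 3′ on the strand of the gene and were read from the R64 reference genome of RefSeq, with positions counted from 1.
ARG3 (chrX:268473-268502, plus strand): agggtcacgtcgTGACTCatatgctttctt
ARG1 (chrXV:218854-218883, plus strand): gtgattttttagTGACTCatgtcgcatttg
BOP2 (chrXII:677927-677956, plus strand): ttcatgatttctGAGTCAttgttgtaccct
SNZ1 (chrXIII:458142-458171, plus strand): atcatgacataaTGACTCagccgacaaggg
ARO9 (chrVIII:375470-375498, plus strand): tactattgCCGCCGACGGCCGtagataat
ARO10 (chrIV:1233868-1233896, plus strand): agggataaCCGCGGATAGCCGtcatttac
ESBP6 (chrXIV:392512-392540, minus strand): agcgcttgCCGACGATAACCGagataacg

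The first base of the capitals lies 314 bases before the start codon in ARG3, 345 in ARG1, 273 in BOP2, 254 in SNZ1, 231 in ARO9, 342 in ARO10 and 365 in ESBP6. Of these sites only that of ARO9 lies wholly within 250 bases of the start codon. The others count only in the window of 500 bases described below. In the window of 250 bases before to 50 bases after each start codon, TGACTC stood on either strand in 8.12% of the 5630 nuclear protein-coding genes tested, in 16.2% of the 495 that were higher with IAA and in 6.94% of the 519 that were lower, and in 39 of the 74 genes of the amino acid synthesis lists described below. Among those 74, it was found in 15 of the 27 genes that were higher and in 24 of the other 47. In a window of 500 bases before the start codon, which was added after the data had been seen, Gcn4 motifs stood in 12.8% of all genes and in all 10 genes of the arginine list. For Aro80 the share in the 500 bases was 5.44% of all genes, and 4 of 14 genes of the Ehrlich pathway held the motif, ARO9 with 5 matches and ARO10 with 4. Of the 15 largest rises, promoters were read for 14, and TGACTC was found in 3 of these in the shorter window and in 8 in the 500 bases. PCL5 and CLD1, both among the genes with large rises, held none in the 500 bases. A match describes the letters only.

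The libraries held 11864457 and 11664085 counts over genes with IAA, against 10182227 and 15072930 with DMSO, and reads that the counter gave to no gene made up 22.1 and 23.3% with IAA, against 21.7 and 25.3% with DMSO. Replicates had Pearson r of 0.991 with IAA and 0.986 with DMSO, and the biological coefficient of variation was 0.124. Genes that define alpha cells, the labelled type, summed to 1794 and 1664 CPM (counts scaled to the size of the library, with TMM factors) with IAA, against 2022 and 1755 CPM with DMSO, and genes of a cells to 31.5 and 38.1 CPM with IAA, against 20.4 and 16.2 CPM with DMSO. Of the alleles that BY4742 lacks, LYS2 had 0 and 0 counts with IAA, against 1 and 1 with DMSO, and URA3 3 and 1 counts with IAA, against 0 and 0 with DMSO. HIS3, with 19 and 15 counts with IAA, against 16 and 16 with DMSO, and LEU2, with 37 and 26 counts with IAA, against 16 and 7 with DMSO, stood at a few CPM at most.

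Of 7126 features counted, 6100 had enough counts to be tested, and 551 of them (9.03%) were higher with IAA and 525 (8.61%) lower at an adjusted p under 0.05 in edgeR's quasi-likelihood test. Only changes past that threshold are called a rise or a fall here, and fold changes are of IAA over DMSO on the log2 scale, with the standard error. With a minimum absolute log2 fold change of 0.58 as well, 353 rose (5.79%) and 247 fell (4.05%), and the median over all genes tested was 0.01. The shares of 9.03% and 8.61% are the ones to set beside the counts of gene lists below, and some lists lay near them. They are not matched for level. Of the 1126 nuclear genes with the highest levels in the 1 h DMSO libraries, 25.6% fell and 1.78% rose. Of the 1126 with the lowest, 3.29% fell and 14.6% rose. A list of abundant mRNAs may thus exceed 8.61% in falls without differing from other abundant mRNAs, which was not tested. For example, 10.8% of nuclear respiratory genes and 9.09% of amino acid permeases rose, and 8.33% of ribosome biogenesis factors fell. With total counts in place of TMM factors, 64.4% of the calls were rises (658 against 364 falls), where 51.2% were in the main fit, and the median was 0.05. Leaving out a library of IAA cost most of the calls: 189 rises and 121 falls were counted without IAA replicate 1, and 181 and 76 without IAA replicate 2, against 608 and 494 without DMSO replicate 1 and 507 and 486 without DMSO replicate 2. None of the 1076 calls had the other sign in any of these fits. The groups did not overlap in any of the 551 and 525 genes, so leaving out a library left little room for a turned sign. Over all 6100 genes tested, the groups did not overlap in 1984 with IAA higher and in 1846 with IAA lower. A lack of overlap alone therefore does not mark a changed gene. Without an IAA library the spread came from the DMSO pair alone, which differed more than the IAA pair (Pearson r of 0.986 against 0.991). A lost call there does not show that a change rested on the library left out. The counts of most gene lists below are given with those of the fits without an IAA library. A list's median is given with that of any fit that moved it by over 1.5 times and by more than 0.1.

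Falls were most frequent among the abundant mRNAs and rises among the scarce ones. With nuclear genes sorted into 5 groups of 1126 by their level in the 1 h DMSO libraries, in CPM per kb of coding sequence, the group with the highest levels had 20 rises and 288 falls, with a median of −0.24. The group with the lowest had 164 rises and 37 falls, with a median of 0.19, and the medians of the groups between them, from low to high levels, were 0.10, 0.05 and −0.06. Across 5630 genes the change had a Pearson r of −0.32 with that level and of −0.01 with coding length, as a description, since genes are not independent replicates. Chromosomes differed little, with medians of −0.05 to 0.03 over the 16 nuclear ones.

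**Figure D1:**
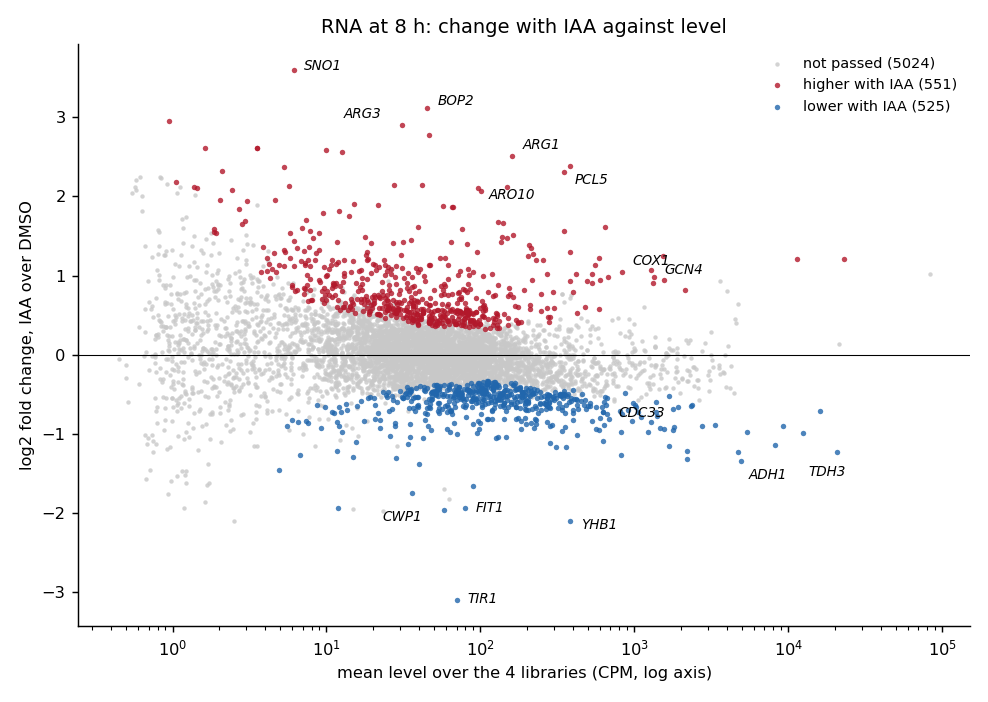
Log2 fold change of IAA over DMSO in RNA at 8 h (vertical) against the mean level of each of the 6100 genes over the 4 libraries in CPM (horizontal, log axis). The 551 genes that rose and the 525 that fell are coloured, and at the right-hand end, from ADH1 to TDH3, most coloured points lie below 0.

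CDC33 mRNA itself stood at 579 and 507 CPM with IAA, against 761 and 830.0 CPM with DMSO. The groups did not overlap and the difference was −0.55 ± 0.14 (adjusted p = 0.0391), which did not pass with total-count scaling (adjusted p = 0.0645), with a replicate block (0.109), or without IAA replicate 1 (0.123), IAA replicate 2 (0.298) or DMSO replicate 2 (0.105). Of the 14 genes for cap binding and eIF4F, 8 fell and none rose, with a median of −0.52 (1 fell without either IAA replicate in turn, 3 without DMSO replicate 2). CAF20, an eIF4E-binding protein that competes with eIF4G, had 162 and 163 CPM with IAA, against 309 and 287 CPM with DMSO, a change of −0.87 ± 0.11 (adjusted p = 0.00473). TIF4631, a gene for eIF4G, had 286 and 229 CPM with IAA, against 379 and 455 CPM with DMSO (−0.70 ± 0.16, adjusted p = 0.0272), and did not pass without IAA replicate 1 (0.0503), IAA replicate 2 (0.186) or DMSO replicate 2 (0.0604).

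3 of 20 other initiation factors fell (0 without either IAA replicate), 6 of 12 elongation factors (1 without either, 3 without DMSO replicate 2), and 3 of 22 aminoacyl-tRNA synthetases, which charge tRNAs (1 without IAA replicate 1 or DMSO replicate 2, 0 without IAA replicate 2, 5 without DMSO replicate 1). Their medians were −0.18, −0.50 and −0.30, the last being −0.12 without IAA replicate 2 and −0.11 without DMSO replicate 2. Few ribosomal protein genes passed: 4 of 81 of the large and 2 of 57 of the small subunit fell, with a median of −0.14 over all 138 (−0.08 without IAA replicate 1, −0.0012 without DMSO replicate 1, −0.26 without DMSO replicate 2). DESeq2 called 12 falls and 1 rise among the large and 12 falls and 3 rises among the small subunit proteins, the fit without IAA replicate 1 none, and without IAA replicate 2 there were 1 fall and 0. Without DMSO replicate 1 there were 3 rises in each and 3 and 1 falls, and the median of the small subunit turned positive (0.01). Reads that matched more than 1 place were given to no gene (17.9 to 20.1% of reads in the 8 h RNA libraries). Near-identical pairs of ribosomal protein genes may have lost reads in this way, so that their counts are uncertain. Of 96 ribosome biogenesis factors 8 fell and 1 rose (1 fall without either IAA replicate, 3 rises and 6 falls without DMSO replicate 2), and FPR4, a nucleolar prolyl isomerase, had 128 and 123 CPM with IAA, against 224 and 258 CPM with DMSO (−0.94 ± 0.11, adjusted p = 0.00437). 2 of 14 RNA polymerase I genes rose (0 without either IAA replicate, or without DMSO replicate 2), with a median of 0.05. Of 32 genes of mRNA decay 1 rose and 1 fell (0 falls without IAA replicate 2, 2 without either DMSO replicate). The riser was EDC1, an activator of decapping, with 88.5 and 92.7 CPM with IAA, against 56.0 and 55.5 CPM with DMSO (0.70 ± 0.10, adjusted p = 0.00602).

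GCN4 mRNA was near double in IAA cells, at 1647 and 1898 CPM, against 974 and 826 CPM with DMSO (1.97-fold, 0.98 ± 0.16, adjusted p = 0.0101). It did not pass without IAA replicate 2, at 0.88 and an adjusted p of 0.0669. PCL5 mRNA had 507 and 656 CPM with IAA, against 131 and 103 CPM with DMSO, 4.97-fold higher (2.31 ± 0.18, adjusted p = 0.000933), and passed in every alternative run. The other genes of GCN4 control, among them subunits of eIF2, eIF2B and the kinase Gcn2, had few calls: of the 17 listed, GCN4 and PCL5 included, 3 rose and 1 fell (2 and 0 without IAA replicate 1 or DMSO replicate 2, 1 and 0 without IAA replicate 2), with a median of 0.02 (0.12 without DMSO replicate 1) that turned negative with DESeq2 and in the fit of all 8 RNA libraries.

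The genes of arginine synthesis had the highest median of the lists. All 10 rose (8 without IAA replicate 1, 9 without IAA replicate 2), by 0.65 to 2.90, with a median of 1.75. ARG3, ornithine carbamoyltransferase, had 52.9 and 55.9 CPM with IAA, against 8.07 and 6.59 CPM with DMSO (2.90 ± 0.15, adjusted p = 0.000144). ARG1, argininosuccinate synthase, had 278 and 269 CPM with IAA, against 52.7 and 43.7 CPM with DMSO (2.51 ± 0.12, adjusted p = 0.000144). ARG4, argininosuccinate lyase, followed with 254 and 231 CPM with IAA, against 58.9 and 52.9 CPM with DMSO (2.12 ± 0.11, adjusted p = 0.000144). The smallest of the named rises was that of ARG8, acetylornithine aminotransferase in mitochondria, with 46.9 and 44.7 CPM with IAA, against 31.6 and 25.4 CPM with DMSO (0.69 ± 0.13, adjusted p = 0.0164). ARG8 did not pass without IAA replicate 1 (adjusted p = 0.0857).

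**Figure D2:**
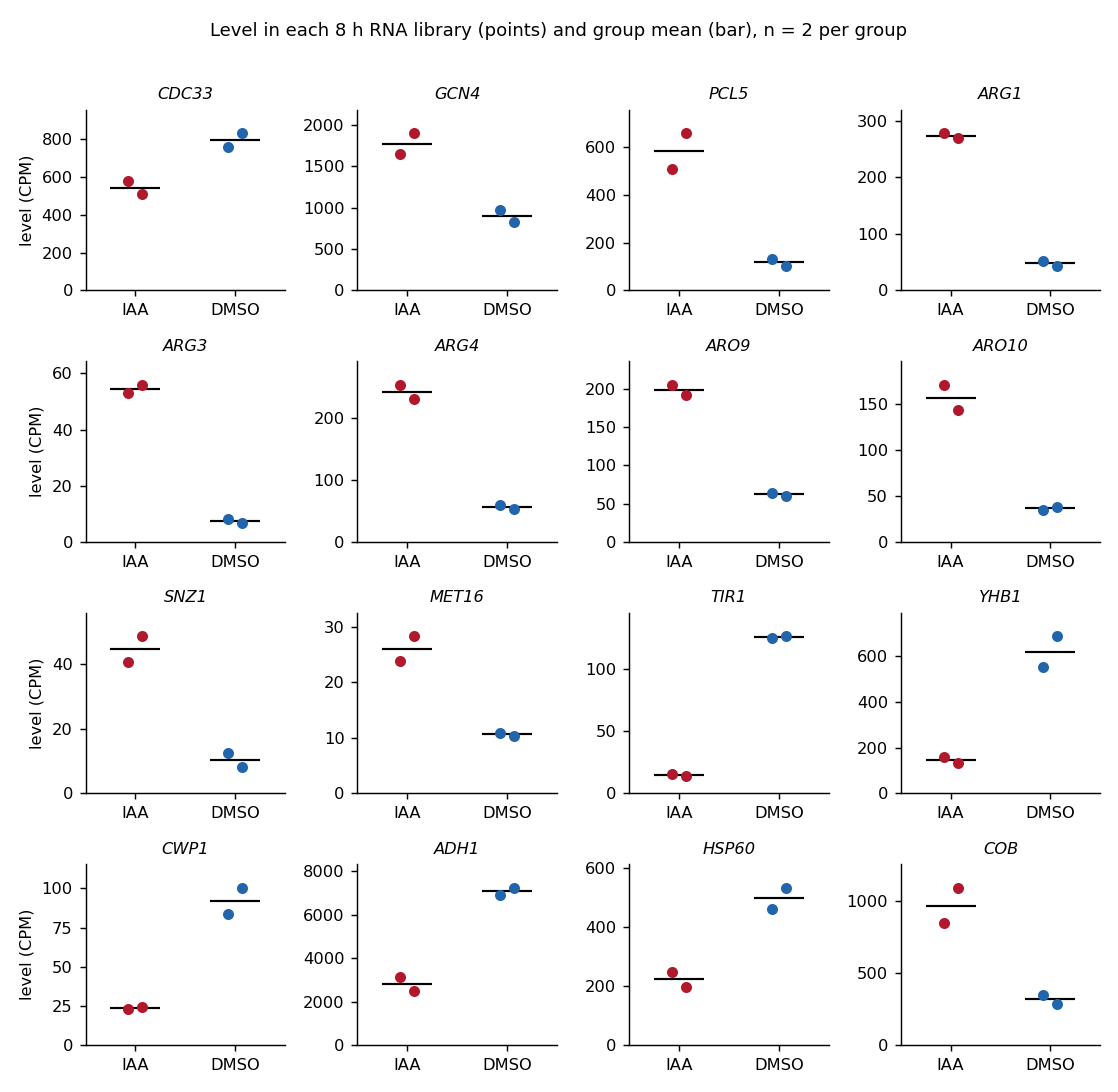
Level in CPM of 16 genes in each 8 h RNA library (points, IAA left of DMSO) with the mean of each group (bars, n = 2), each axis starting at 0. In none of the 16 do the IAA and DMSO points overlap, and the points of CDC33 lie closer together than those of PCL5 or TIR1. Of all 6100 genes tested, 1984 lay higher and 1846 lower with IAA without overlap.

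The other amino acid pathways changed in part. Over the 74 genes of all 7 synthesis lists, arginine included, 27 rose and 4 fell (14 and 0 without IAA replicate 1, 18 and 0 without IAA replicate 2, 23 and 2 with a replicate block), beside 9.03% and 8.61% of all genes, with a median of 0.21. In the 64 other than arginine genes 17 rose and 4 fell (6 and 0 without IAA replicate 1, 9 and 0 without IAA replicate 2), with a median of 0.08. Of 12 genes of aromatic synthesis 6 rose (1 without IAA replicate 1, 3 without IAA replicate 2, 4 without DMSO replicate 1), with a median of 0.38. ARO1, which encodes several steps of the shikimate pathway in a single protein, had 419 and 337 CPM with IAA, against 217 and 219.8 CPM with DMSO (0.79 ± 0.14, adjusted p = 0.0123), and did not pass without IAA replicate 1 (0.0671). ARO3, which makes the first intermediate of that pathway, had 196 and 183 CPM with IAA, against 117 and 110.1 CPM with DMSO (0.74 ± 0.10, adjusted p = 0.00531). 3 of 9 lysine genes rose (2 without either IAA replicate), among them LYS1, saccharopine dehydrogenase, with 78.0 and 75.4 CPM with IAA, against 39.6 and 43.9 CPM with DMSO (0.88 ± 0.11, adjusted p = 0.00437). LYS14, the activator of the lysine genes, had 103 and 106 CPM with IAA, against 60.9 and 60.1 CPM with DMSO (0.79 ± 0.10, adjusted p = 0.00437). Medians were 0.19 for lysine (0.06 without IAA replicate 1, 0.33 without IAA replicate 2) and 0.38 for histidine, where 2 of 6 genes rose (1 without either IAA replicate), the larger change being that of HIS5, histidinol-phosphate aminotransferase, with 202 and 194 CPM with IAA, against 119 and 102 CPM with DMSO (0.84 ± 0.11, adjusted p = 0.00522). HIS4, a multifunctional enzyme of the same pathway, had 402 and 327 CPM with IAA, against 281 and 286 CPM with DMSO, and did not pass (0.36 ± 0.14, adjusted p = 0.11).

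Of 12 branched-chain genes 3 rose (0 without IAA replicate 1, 1 without IAA replicate 2), with a median of 0.05. LEU4, which makes the first intermediate of leucine, had 739 and 643 CPM with IAA, against 348 and 388 CPM with DMSO (0.91 ± 0.14, adjusted p = 0.00882), and did not pass without IAA replicate 1 (0.0533). 2 of 12 genes for serine, glycine and threonine rose and 1 fell (2 and 0 without either IAA replicate), with a median of −0.20. The risers were SER3, phosphoglycerate dehydrogenase, with 107 and 119 CPM with IAA, against 54.3 and 52.4 CPM with DMSO (1.08 ± 0.11, adjusted p = 0.00205), and HOM3, aspartate kinase. HOM3 had 319 and 304 CPM with IAA, against 176 and 187 CPM with DMSO (0.77 ± 0.11, adjusted p = 0.0064). The list for glutamate, glutamine, asparagine and proline went mostly the other way, with 3 falls and 1 rise among 13 genes (none without either IAA replicate, 4 and 0 without DMSO replicate 1, 1 and 1 without DMSO replicate 2) and a median of −0.13 (−0.29 without IAA replicate 1, −0.26 without DMSO replicate 1). The largest of these falls was that of PRO3, the last enzyme of proline synthesis, with 216 and 224 CPM with IAA, against 323 and 319 CPM with DMSO (−0.55 ± 0.11, adjusted p = 0.0188), which did not pass without IAA replicate 1 (0.125) or 2 (0.13).

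ARO9 and ARO10, the transaminase and decarboxylase at the start of the Ehrlich pathway, were higher in both IAA libraries than in both DMSO libraries. ARO9 had 205 and 191 CPM with IAA, against 64.04 and 59.9 CPM with DMSO, a rise of 3.20-fold (1.68 ± 0.10, adjusted p = 0.000182). ARO10 had 171 and 144 CPM with IAA, against 34.9 and 38.2 CPM with DMSO, a rise of 4.30-fold (2.10 ± 0.12, adjusted p = 0.000182). ARO80, their activator, overlapped between the groups, with 35.2 and 31.5 CPM with IAA, against 27.6 and 33.5 CPM with DMSO (0.12 ± 0.14, adjusted p = 0.577). ESBP6, a transporter-like protein, had 73.7 and 68.8 CPM with IAA, against 42.0 and 36.3 CPM with DMSO (0.87 ± 0.12, adjusted p = 0.00531). In the whole list of 14, with alcohol dehydrogenases and other decarboxylases, 4 rose and none fell (3 without either IAA replicate), with a median of 0.27 (0.15 without IAA replicate 1).

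Of the 11 genes that take up sulfate and reduce it to sulfide, 8 rose (5 without IAA replicate 1, 6 without IAA replicate 2), none fell, and the median was 0.93. MET16, which reduces activated sulfate to sulfite, had 23.9 and 28.3 CPM with IAA, against 10.9 and 10.3 CPM with DMSO (1.30 ± 0.15, adjusted p = 0.00423). MET3, ATP sulfurylase, had 45.2 and 39.1 CPM with IAA, against 23.0 and 20.0 CPM with DMSO (0.98 ± 0.14, adjusted p = 0.00568). SUL2, a sulfate permease, had 29.2 and 25.7 CPM with IAA, against 12.3 and 12.6 CPM with DMSO (1.14 ± 0.14, adjusted p = 0.00437). In 10 of these 11 genes the 500 bases before the start codon held CACGTG, the motif of Cbf1, beside 6.29% of all genes. The methionine cycle split, with 4 rises and 4 falls among 19 genes (3 and 2 without IAA replicate 1, 3 and 1 without IAA replicate 2) and a median of 0.18 (0.04 without IAA replicate 1, 0.31 without IAA replicate 2). STR3, which turns cystathionine into homocysteine, had 12.6 and 10.1 CPM with IAA, against 2.96 and 3.95 CPM with DMSO (1.70 ± 0.23, adjusted p = 0.00552), and STR2, which makes cystathionine from cysteine, had 55.7 and 51.0 CPM with IAA, against 26.4 and 25.2 CPM with DMSO (1.05 ± 0.11, adjusted p = 0.00312). The S-adenosylmethionine synthetases were on the other side, SAM2 with 76.9 and 72.9 CPM with IAA, against 114 and 137 CPM with DMSO (−0.75 ± 0.12, adjusted p = 0.00804). 4 of 8 sulfur regulators rose and 1 fell (2 and 0 without either IAA replicate, 4 and 0 without DMSO replicate 1, 3 and 0 without DMSO replicate 2), with a median of 0.46 (0.25 over the 7 genes averaging 100 counts or more). MET4, the activator of the pathway, had 124 and 129 CPM with IAA, against 71.9 and 85.5 CPM with DMSO (0.68 ± 0.11, adjusted p = 0.00955), and MET30, the ubiquitin ligase subunit that holds Met4 back, had 75.4 and 70.3 CPM with IAA, against 43.7 and 42.0 CPM with DMSO (0.77 ± 0.11, adjusted p = 0.00552).

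Genes for the use of poor nitrogen sources rose in 8 of 26 cases and fell in 1 (2 and 1 without either IAA replicate), with a median of 0.41. UGA3, the activator of the genes that use GABA, had 84.3 and 103 CPM with IAA, against 33.6 and 36.2 CPM with DMSO (1.42 ± 0.13, adjusted p = 0.00168). GDH2, the glutamate dehydrogenase that releases ammonia, had 88.0 and 77.8 CPM with IAA, against 33.0 and 37.7 CPM with DMSO (1.23 ± 0.12, adjusted p = 0.00224). CAR2, ornithine transaminase of arginine breakdown, was the gene that fell, with 72.7 and 55.2 CPM with IAA, against 111 and 143 CPM with DMSO (−0.99 ± 0.17, adjusted p = 0.0108). Amino acid permeases showed 2 rises and 1 fall among 22 genes (1 and 0 without either IAA replicate, 2 and 0 without DMSO replicate 2), with a median of 0.09. GAP1, the general amino acid permease, had 27.0 and 24.6 CPM with IAA, against 10.6 and 11.7 CPM with DMSO (1.21 ± 0.15, adjusted p = 0.00437).

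Vitamin and nucleotide genes held a few sharp changes and otherwise small ones. SNZ1 and SNO1, a divergent pair that makes vitamin B6, rose: SNZ1 had 40.8 and 48.6 CPM with IAA, against 12.4 and 8.03 CPM with DMSO (2.15 ± 0.21, adjusted p = 0.00207). SNO1 had 9.45 and 13.1 CPM with IAA, against 1.02 and 0.856 CPM with DMSO, the largest log2 fold change among genes that passed (3.59 ± 0.30, adjusted p = 0.000981). The copies SNZ2, SNZ3, SNO2 and SNO3, near-identical in pairs, did not pass and lay at 3.47 CPM or less in all libraries, so the median of the 6 was −0.05 (−0.29 without IAA replicate 2, −0.31 without DMSO replicate 2) and changed sign without IAA replicate 1 or DMSO replicate 1, or with SNZ1 alone, the 1 gene averaging 100 counts or more. In biotin and NAD synthesis 2 of 13 rose and 5 fell (0 and 5 without IAA replicate 1, 0 and 4 without IAA replicate 2, 1 and 5 without DMSO replicate 2), with a median of −0.29 (−0.78 over the 9 genes averaging 100 counts or more). Some of the falls were of enzymes of the kynurenine route from tryptophan to NAD. BNA5, kynureninase, had 21.7 and 20.8 CPM with IAA, against 45.7 and 46.8 CPM with DMSO (−1.12 ± 0.11, adjusted p = 0.00224). BNA4, kynurenine monooxygenase, had 15.7 and 15.2 CPM with IAA, against 30.2 and 28.4 CPM with DMSO (−0.92 ± 0.13, adjusted p = 0.00602). TNA1, the nicotinic acid permease, had 108 and 100.1 CPM with IAA, against 188 and 176 CPM with DMSO (−0.80 ± 0.10, adjusted p = 0.00437). Thiamine genes had 1 rise and 1 fall among 14 (0 without either IAA replicate, 0 and 1 without DMSO replicate 2), with a median of 0.27, purine synthesis 2 rises and 3 falls among 18 (0 without either IAA replicate, 0 and 4 without DMSO replicate 1, 2 and 1 without DMSO replicate 2), with a median of −0.26, and pyrimidine synthesis 3 falls among 11 (1 without IAA replicate 1 or DMSO replicate 1, 0 without IAA replicate 2), with a median of −0.12. Glycine cleavage and one-carbon genes had 3 rises and 2 falls among 10 (0 without either IAA replicate, 1 and 2 without DMSO replicate 1, 1 and 1 without DMSO replicate 2), with a median of −0.31.

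Glycolysis had the lowest median of all lists, −0.87, with 9 falls and no rise among 16 genes. None of the 16 lay above 0. All or nearly all of these calls were lost without an IAA library, where the spread came from the DMSO pair alone. The list's median lay below 0 in every fit run, at −0.98 without IAA replicate 1 and −0.72 without IAA replicate 2. TDH3, glyceraldehyde-3-phosphate dehydrogenase and among the most abundant mRNAs, had 12802 and 11973 CPM with IAA, against 27506 and 30662 CPM with DMSO (−1.23 ± 0.17, adjusted p = 0.00531), and did not pass without IAA replicate 1 (0.0888). Reads of TDH3 that also match its copies may be missing from its count. PGK1, phosphoglycerate kinase, had 3008 and 2656 CPM with IAA, against 5982 and 7224 CPM with DMSO (−1.22 ± 0.18, adjusted p = 0.00636), and did not pass without IAA replicate 1 (0.0543) or 2 (0.0508). Past pyruvate, 5 of 15 genes fell and 2 rose (4 and 0 without IAA replicate 1, 2 and 1 without IAA replicate 2, 4 and 4 without DMSO replicate 1, 4 and 1 without DMSO replicate 2), with a median of −0.40 (−0.10 without DMSO replicate 2, −0.03 over the 13 genes averaging 100 counts or more). ADH1, the main alcohol dehydrogenase of fermentation, had 3142 and 2477 CPM with IAA, against 6934 and 7240.4 CPM with DMSO (−1.34 ± 0.18, adjusted p = 0.00531). ALD6, the cytosolic acetaldehyde dehydrogenase, had 525 and 434 CPM with IAA, against 1076 and 1225 CPM with DMSO (−1.26 ± 0.16, adjusted p = 0.00479).

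Sugar uptake and stores moved less. Among 17 hexose transporters and glucose sensing genes 4 fell and 1 rose (2 and 0 without IAA replicate 1, 1 and 0 without IAA replicate 2, 3 and 3 without DMSO replicate 1, 4 and 0 without DMSO replicate 2), with a median of −0.02 that was above 0 with total-count scaling and without IAA replicate 2 or DMSO replicate 1. HXT3, a low-affinity glucose transporter, had 211 and 172 CPM with IAA, against 399.6 and 461 CPM with DMSO (−1.17 ± 0.15, adjusted p = 0.00479). In gluconeogenesis and the glyoxylate cycle 3 of 10 rose (0 without IAA replicate 1, 2 without IAA replicate 2), with a median of 0.34 (0.23 without IAA replicate 1, 0.55 without IAA replicate 2, 0.13 over the 3 genes averaging 100 counts or more), and PCK1, the first enzyme of gluconeogenesis, had 8.71 and 8.52 CPM with IAA, against 3.47 and 2.50 CPM with DMSO (1.54 ± 0.25, adjusted p = 0.00907), and did not pass without IAA replicate 1 (0.0598). Trehalose and glycogen genes had 1 rise and 1 fall among 20 (0 without either IAA replicate, 2 and 1 without either DMSO replicate), with a median of −0.03 (−0.18 without IAA replicate 1), and the TCA cycle and retrograde response 2 rises and 4 falls among 26 (0 and 1 without either IAA replicate, 0 and 4 without DMSO replicate 1, 5 and 3 without DMSO replicate 2), with a median of 0.02. The signs of both medians changed between fits.

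Most mRNAs of the mitochondrial genome rose. Of its 8 proteins listed, 6 rose (6 without IAA replicate 1, 5 without IAA replicate 2), with a median of 1.41. COB, cytochrome b, had 844 and 1089.8 CPM with IAA, against 349.5 and 284 CPM with DMSO (1.61 ± 0.18, adjusted p = 0.00363). COX2, a subunit of cytochrome oxidase, had 186 and 254 CPM with IAA, against 92.2 and 65.9 CPM with DMSO (1.48 ± 0.20, adjusted p = 0.00531). ATP6, of the ATP synthase, had 245 and 365 CPM with IAA, against 132 and 108 CPM with DMSO (1.35 ± 0.20, adjusted p = 0.00701). ATP8 and VAR1, at 2.38 CPM or less in all libraries, did not pass. Of 37 nuclear respiratory genes 4 rose and 1 fell (1 and 1 without IAA replicate 1, 2 and 1 without IAA replicate 2, 8 and 1 without DMSO replicate 1, 3 and 3 without DMSO replicate 2), with a median of 0.23 (0.13 without IAA replicate 2, 0.10 without DMSO replicate 2). QCR9, a small subunit of the cytochrome bc1 complex, had 53.2 and 61.4 CPM with IAA, against 32.1 and 25.8 CPM with DMSO (0.99 ± 0.14, adjusted p = 0.00636), and CYC1, cytochrome c, was the fall, with 14.4 and 18.5 CPM with IAA, against 42.9 and 38.1 CPM with DMSO (−1.30 ± 0.16, adjusted p = 0.00437). In the mitochondrial ribosome 9 of 62 fell and none rose (0 without IAA replicate 1, 1 without IAA replicate 2, 2 without DMSO replicate 1 and 19 without DMSO replicate 2), with a median of −0.28 (−0.18 without DMSO replicate 1).

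Non-coding RNAs took a larger share of the IAA libraries. Nuclear protein-coding genes held 80.1 and 77.7% of gene counts with IAA, against 87.0 and 92.1% with DMSO, and the group of other non-coding RNAs 11.5 and 12.4% with IAA, against 7.42 and 3.97% with DMSO. SCR1, an RNA described below, held most of the counts of that group in each library, and its own change did not pass. snoRNAs, which guide the modification of ribosomal RNA, held 3.37 and 3.94% with IAA, against 2.31 and 1.60% with DMSO. The DMSO replicates differed from each other by more than the IAA replicates in these shares, with DMSO replicate 2 the highest in the share of nuclear protein-coding genes and the lowest in those of the non-coding classes. Of 72 snoRNAs tested 16 (22.2%) rose and none fell, with a median of 0.53, beside rises in 9.03% of all genes tested. Of 19 mitochondrial protein-coding features 15 (78.9%) rose and none fell, with a median of 1.30. Of 299 tRNAs 40 could be tested, and 5 of these (12.5%, near the share of all genes) rose and none fell, with a median of 0.70. tRNAs were scarce, at 0.0174 and 0.0177% of gene counts with IAA, against 0.0124 and 0.00847% with DMSO. SCR1, the RNA of the signal recognition particle, had 106063 and 117027 CPM with IAA, against 72995 and 37126 CPM with DMSO, and did not pass (1.02, adjusted p = 0.0566). TLC1, the RNA of telomerase, had 613 and 820 CPM with IAA, against 422 and 283 CPM with DMSO, and rose by 1.03 (adjusted p = 0.0241). SCR1 and TLC1 were chosen after their values were seen. With the fit on the 5631 nuclear protein-coding genes alone, an alternative added after the data had been seen, 678 rose and 704 fell.

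**Figure D3:**
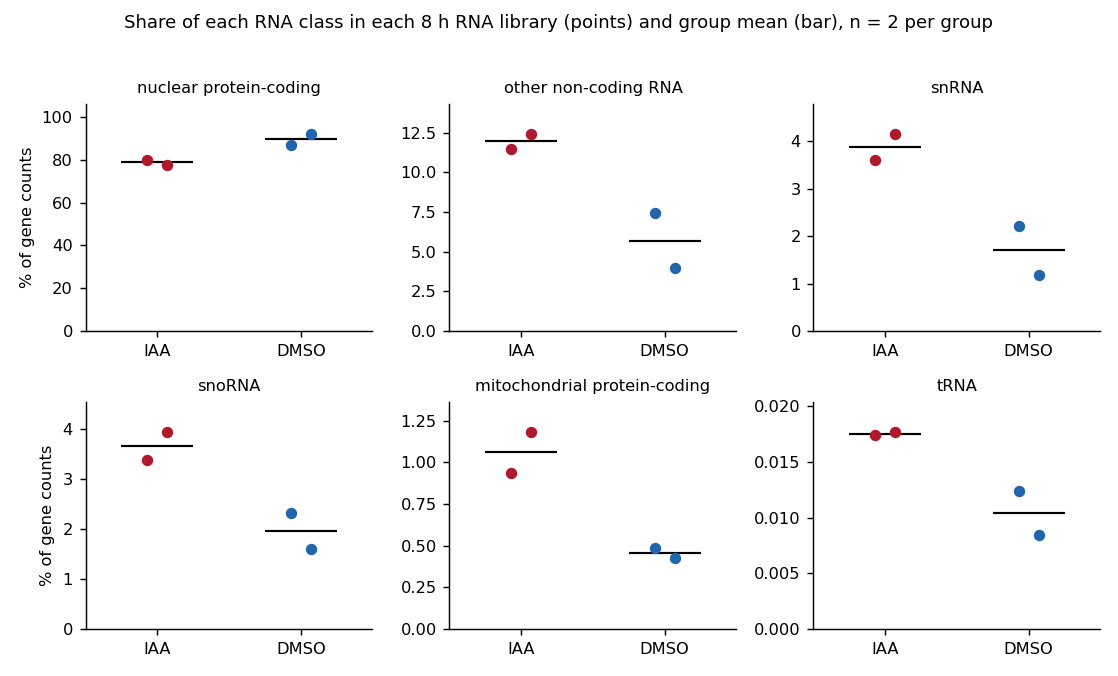
Share of gene counts, in percent, held by 6 classes of RNA in each 8 h RNA library (points, IAA left of DMSO) with the mean of each group (bars, n = 2), each axis starting at 0. Nuclear protein-coding genes hold 80.1 and 77.7% with IAA, against 87.0 and 92.1% with DMSO, and the 5 other classes lie higher with IAA.

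Heat shock chaperones fell in 11 of 25 cases and rose in 1 (7 and 0 without IAA replicate 1, 3 and 1 without IAA replicate 2), with a median of −0.41. SSA2, a cytosolic Hsp70 that may lose reads also matching its near-copy SSA1, had 1431 and 1111 CPM with IAA, against 2847 and 3451 CPM with DMSO (−1.31 ± 0.19, adjusted p = 0.00638). HSP60, the chaperonin of mitochondria, had 247 and 198 CPM with IAA, against 462 and 534 CPM with DMSO (−1.16 ± 0.16, adjusted p = 0.00531). CPR6, a partner of Hsp90, had 153 and 156 CPM with IAA, against 254 and 329.8 CPM with DMSO (−0.92 ± 0.15, adjusted p = 0.00873). The riser was HSP12, a small membrane protein made in starvation and general stress, with 30.7 and 16.4 CPM with IAA, against 9.29 and 3.69 CPM with DMSO (1.90 ± 0.44, adjusted p = 0.0276), which did not pass with DESeq2 (0.0788) or without IAA replicate 1 (0.102). The Hsf1 motif of alternating GAA and TTC units was in the 250 bases before to 50 after the start in 8 of the 25, beside 0.817% of all genes. The proteasome, which degrades tagged proteins, fell in 12 of 33 genes and rose in none (1 without either IAA replicate), with a median of −0.33. RPT2, an ATPase of its base, had 85.7 and 75.8 CPM with IAA, against 132 and 149 CPM with DMSO (−0.80 ± 0.11, adjusted p = 0.00531).

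Other stress genes were split. In the general stress response 7 of 30 rose and 4 fell (3 and 3 without IAA replicate 1, 4 and 1 without IAA replicate 2), with a median of 0.28 (0.16 without DMSO replicate 2). CTT1, cytosolic catalase, had 21.9 and 19.5 CPM with IAA, against 9.91 and 8.43 CPM with DMSO (1.18 ± 0.16, adjusted p = 0.00552). DDR2, a small stress-induced protein, had 15.2 and 14.4 CPM with IAA, against 5.005 and 3.62 CPM with DMSO (1.80 ± 0.21, adjusted p = 0.00406). DDR48, a stress protein, went the other way, with 87.1 and 85.3 CPM with IAA, against 145 and 207 CPM with DMSO (−1.03 ± 0.16, adjusted p = 0.00882). Oxidative stress genes fell in 11 of 27 cases and rose in 3 (5 and 2 without IAA replicate 1, 3 and 1 without IAA replicate 2), with a median of −0.11 (−0.23 without DMSO replicate 2). YHB1, the flavohemoglobin that detoxifies nitric oxide, had 158 and 131 CPM with IAA, against 554 and 687 CPM with DMSO, 4.29-fold higher with DMSO (−2.10 ± 0.17, adjusted p = 0.000933). TSA1, the main peroxiredoxin, had 1325 and 1339 CPM with IAA, against 3006 and 3157 CPM with DMSO (−1.21 ± 0.15, adjusted p = 0.00437). Drug efflux pumps had 4 falls and 1 rise among 13 (3 and 0 without IAA replicate 1, 0 and 1 without IAA replicate 2), with a median of −0.12. PDR5, the chief of these pumps, had 1428 and 1076 CPM with IAA, against 2304 and 2406 CPM with DMSO (−0.91 ± 0.18, adjusted p = 0.0172), and did not pass without IAA replicate 2 (0.145). ATR1, a multidrug exporter counted in the oxidative stress list, was on the rising side, with 72.6 and 81.6 CPM with IAA, against 36.8 and 29.3 CPM with DMSO (1.23 ± 0.14, adjusted p = 0.00363).

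Genes regulated by heme and oxygen fell in 8 of 27 cases and rose in 1 (5 and 0 without IAA replicate 1, 3 and 0 without IAA replicate 2), with a median of −0.27 (−0.42 without IAA replicate 1), and included the largest fall of all. TIR1, a cell wall mannoprotein made in the cold and without oxygen, had 15.6 and 13.9 CPM with IAA, against 125 and 126 CPM with DMSO, 8.52-fold higher with DMSO (−3.09 ± 0.12, adjusted p = 7.3e-05). ANB1, the hypoxic form of eIF5A, had 5.26 and 4.69 CPM with IAA, against 17.9 and 20.1 CPM with DMSO (−1.93 ± 0.17, adjusted p = 0.00149), and may lose reads that also match HYP2. HEM13, which makes a heme precursor with oxygen, had 50.3 and 44.8 CPM with IAA, against 82.6 and 90.4 CPM with DMSO (−0.86 ± 0.11, adjusted p = 0.00513). The gene that rose was TIR2, of the same family as TIR1, with 11.1 and 12.4 CPM with IAA, against 6.13 and 6.06 CPM with DMSO (0.94 ± 0.18, adjusted p = 0.015). TIR2 did not pass without IAA replicate 1 (0.0652) or 2 (0.113).

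In the cell wall list 12 of 29 fell and 3 rose (4 and 2 without IAA replicate 1, 3 and 2 without IAA replicate 2), with a median of −0.40 (−0.27 without IAA replicate 2). CWP1, a mannoprotein of the wall, had 23.3 and 24.0 CPM with IAA, against 83.9 and 100.4 CPM with DMSO (−1.96 ± 0.13, adjusted p = 0.000326). SLT2, the kinase of the cell integrity pathway, had 170.2 and 166 CPM with IAA, against 88.2 and 94.4 CPM with DMSO (0.88 ± 0.09, adjusted p = 0.00312). GSC2, the glucan synthase subunit made in response to wall stress, had 109 and 108 CPM with IAA, against 54.2 and 61.9 CPM with DMSO (0.90 ± 0.11, adjusted p = 0.00423). Ergosterol synthesis, the yeast counterpart of cholesterol synthesis, fell in 9 of 26 genes and rose in none (2 without either IAA replicate, 5 without DMSO replicate 2), with a median of −0.35. ERG6, a methyltransferase of the pathway, had 237 and 222 CPM with IAA, against 425 and 470.4 CPM with DMSO (−0.96 ± 0.13, adjusted p = 0.00513). Of 23 genes for fatty acids and phospholipids 3 fell and 2 rose (1 and 0 without IAA replicate 1, 0 and 0 without IAA replicate 2), with a median of −0.23.

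Iron and phosphate genes were split, while the zinc and copper genes that passed all rose. Among 29 iron uptake genes 5 rose and 2 fell (2 and 1 without IAA replicate 1, 1 and 1 without IAA replicate 2, 3 and 1 without DMSO replicate 1, 3 and 3 without DMSO replicate 2), with a median of 0.09. FIT1, a wall protein that holds iron carriers, had 32.4 and 33.5 CPM with IAA, against 117 and 135 CPM with DMSO (−1.94 ± 0.11, adjusted p = 0.000182), and FRE3, a reductase for siderophore iron, had 57.9 and 69.7 CPM with IAA, against 33.3 and 25.0 CPM with DMSO (1.14 ± 0.16, adjusted p = 0.00638). In the zinc and copper list 6 of 13 rose and none fell (3 without IAA replicate 1, 2 without IAA replicate 2, 4 without DMSO replicate 2), with a median of 0.41. ZRT1, the high-affinity zinc transporter, had 55.9 and 48.1 CPM with IAA, against 17.4 and 20.6 CPM with DMSO (1.45 ± 0.14, adjusted p = 0.00198), and ZAP1, the zinc-sensing activator, had 77.3 and 76.6 CPM with IAA, against 44.6 and 46.6 CPM with DMSO (0.75 ± 0.10, adjusted p = 0.00531). In the phosphate list 4 of 19 fell and 2 rose (2 and 1 without IAA replicate 1, 1 and 1 without IAA replicate 2), with a median of −0.09. PHO89, a sodium-coupled phosphate transporter, had 290.1 and 287 CPM with IAA, against 124 and 118 CPM with DMSO (1.25 ± 0.11, adjusted p = 0.00112).

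Genes of DNA replication and nucleotide supply fell in 10 of 28 cases and rose in none (2 without IAA replicate 1, 1 without IAA replicate 2, 6 without DMSO replicate 2), with a median of −0.39. POL30, the sliding clamp PCNA, had 78.3 and 80.9 CPM with IAA, against 127 and 125 CPM with DMSO (−0.66 ± 0.09, adjusted p = 0.00531), and did not pass without IAA replicate 1 (0.0558). Of 10 histone genes 3 fell (1 without either IAA replicate or without DMSO replicate 1, 5 without DMSO replicate 2), with a median of −0.39. HHO1, the linker histone, had 67.2 and 68.1 CPM with IAA, against 129.7 and 128 CPM with DMSO (−0.93 ± 0.09, adjusted p = 0.00207). Histone mRNAs mostly lack poly(A) in animals but carry it in yeast. Cyclins and SIC1 had 2 falls among 20 (0 without either IAA replicate, 1 without either DMSO replicate), with a median of −0.01 that was above 0 in 4 of the fits, and daughter-cell genes 3 falls among 15 (0 without either IAA replicate, 1 without DMSO replicate 2), with a median of −0.22 (−0.11 without DMSO replicate 2). In the list of vacuolar proteases and autophagy 2 of 25 rose and 4 fell (1 and 3 without IAA replicate 1, 1 and 0 without IAA replicate 2), with a median of −0.07, and ATG41, an autophagy gene, had 127 and 141 CPM with IAA, against 61.1 and 48.8 CPM with DMSO (1.29 ± 0.13, adjusted p = 0.00233).

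**Figure D4:**
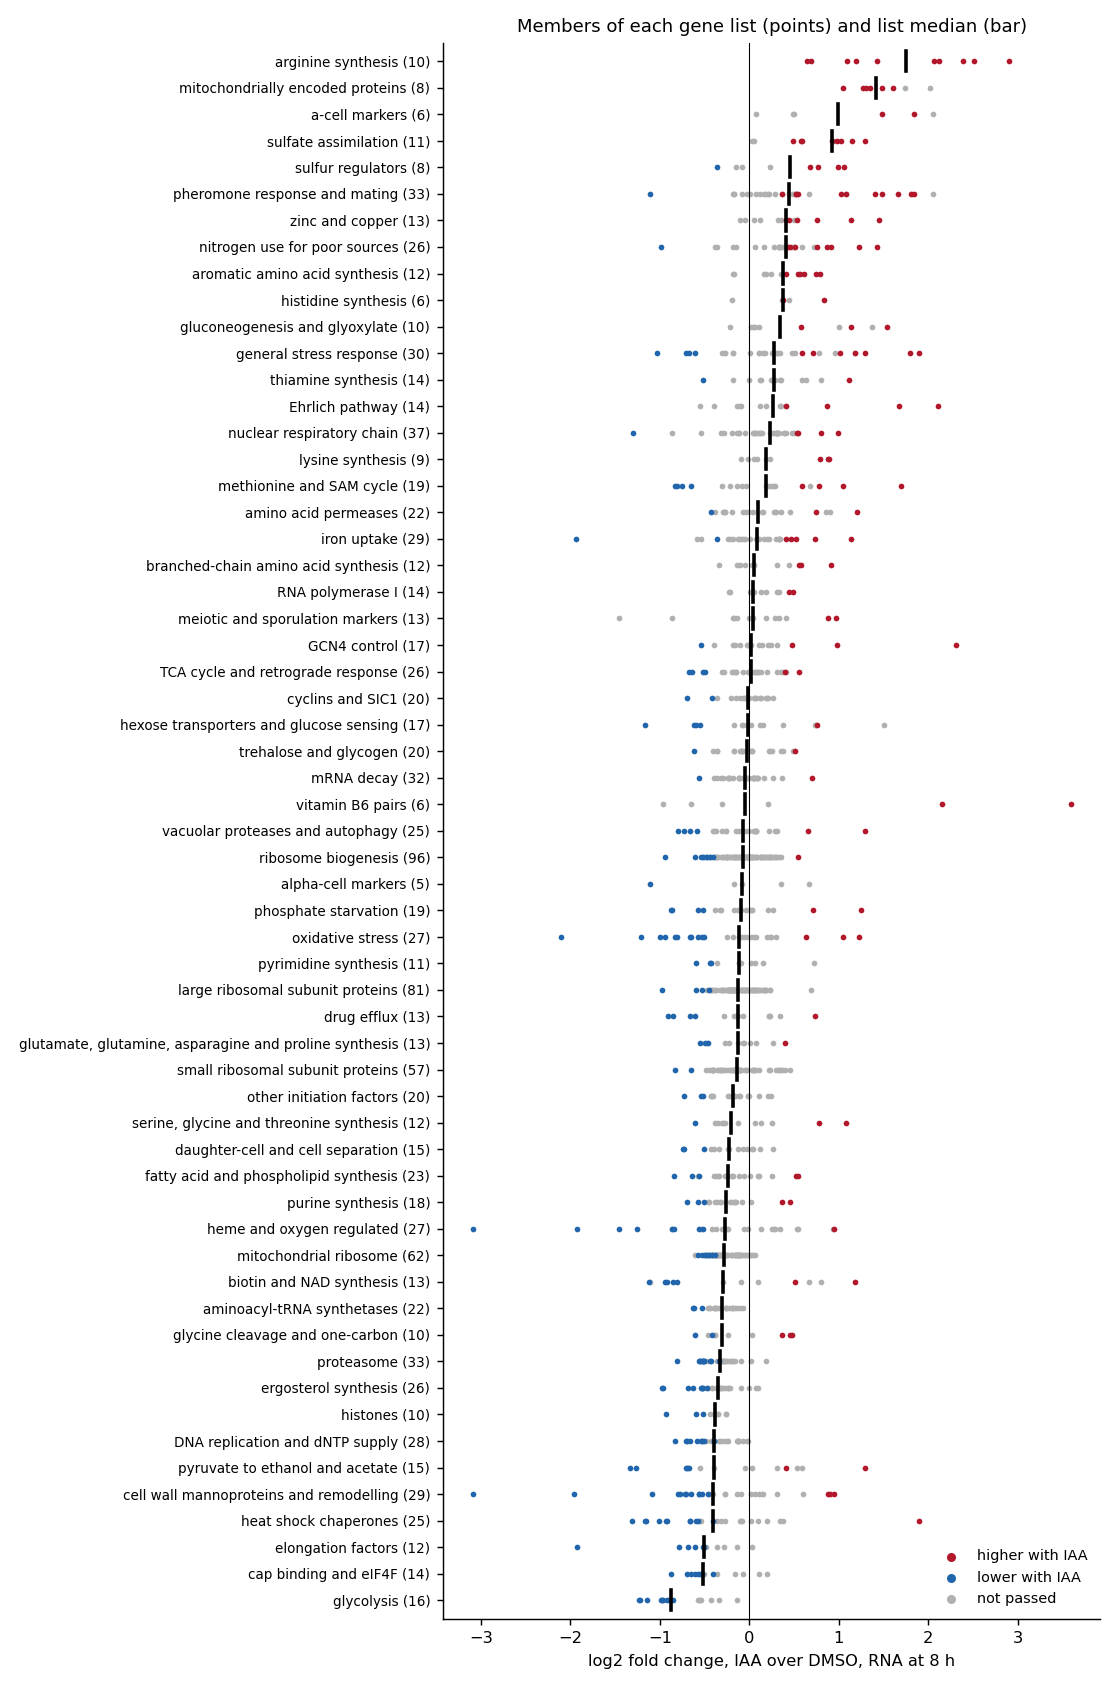
Log2 fold change of IAA over DMSO at 8 h for each tested member (points, coloured where it passed) of 59 gene lists, with the list median (bar) and the number tested in brackets, sorted by median. Arginine synthesis stands at the top with a median of 1.75 and glycolysis at the bottom with −0.87.

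Genes of the pheromone response and mating rose in 11 of 33 cases and fell in 1 (5 and 1 without IAA replicate 1, 6 and 1 without IAA replicate 2), with a median of 0.44. KAR4, a regulator of nuclear fusion, had 55.2 and 55.0 CPM with IAA, against 28.2 and 24.0 CPM with DMSO (1.08 ± 0.12, adjusted p = 0.00363). SST2, which damps the pheromone signal, had 366 and 356 CPM with IAA, against 187 and 169 CPM with DMSO (1.02 ± 0.12, adjusted p = 0.00395). MF(ALPHA)2, 1 of the genes for alpha factor, was the fall, with 185 and 175 CPM with IAA, against 471 and 310.3 CPM with DMSO (−1.11 ± 0.20, adjusted p = 0.012). The Ste12 motif TGAAACA stood in the window of 250 bases before to 50 after the start in 18 of the 33 genes, beside 7.53% of all genes, for example in KAR4 and in STE2, the sites of which are shown with the motif or its reverse complement in capitals.
KAR4 (chrIII:27773-27801, plus strand): ctctgtagtctTGTTTCAcacttcgtcat
STE2 (chrVI:82372-82400, plus strand): taagtacatgaTGAAACAcatatgaagaa

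STE2, the receptor for alpha factor and an a-cell gene, had 11.6 and 12.4 CPM with IAA, against 4.09 and 4.48 CPM with DMSO (1.48 ± 0.19, adjusted p = 0.00479). 2 of 6 tested a-cell markers rose (1 without either IAA replicate), with a median of 0.99 (0.52 for the 1 gene averaging 100 counts or more), and the summed a-cell level of 31.5 and 38.1 CPM with IAA, against 20.4 and 16.2 CPM with DMSO, stands beside the mating genes. No a-cell marker was at 0 in any library, and its part in the mating genes was not tested. Of 5 alpha-cell markers tested 1 fell and none rose (1 rose without DMSO replicate 1 or 2), with a median of −0.08. Of 13 meiotic and sporulation markers tested 2 rose (0 without either IAA replicate, 1 without either DMSO replicate), with a median of 0.05 (0.24 without IAA replicate 1, 0.18 without DMSO replicate 1, 0.37 over the 4 genes averaging 100 counts or more) that turned negative without DMSO replicate 2, and their sum was 90.3 and 101 CPM with IAA, against 80.6 and 76.2 CPM with DMSO.

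Several of the largest changes lay outside these lists. BOP2, whose function is not established, had 73.2 and 88.8 CPM with IAA, against 9.19 and 9.48 CPM with DMSO, an 8.66-fold rise (3.11 ± 0.14, adjusted p = 0.000144). CLD1, the phospholipase that remodels cardiolipin, had 14.9 and 19.1 CPM with IAA, against 2.25 and 3.29 CPM with DMSO (2.58 ± 0.24, adjusted p = 0.00181). ARO5 (YGL117W) had 81.1 and 81.6 CPM with IAA, against 13.6 and 10.4 CPM with DMSO (2.78 ± 0.15, adjusted p = 0.000144). OSI1 had 9.21 and 9.46 CPM with IAA, against 1.74 and 2.44 CPM with DMSO (2.13 ± 0.25, adjusted p = 0.00423), and FRE7, a metal reductase, had 63.7 and 71.8 CPM with IAA, against 15.8 and 14.8 CPM with DMSO (2.15 ± 0.12, adjusted p = 0.000182). On the other side PLB2, a phospholipase, had 48.7 and 38.4 CPM with IAA, against 131 and 142 CPM with DMSO (−1.65 ± 0.13, adjusted p = 0.000943), and YMR317W had 20.1 and 13.1 CPM with IAA, against 49.4 and 62.1 CPM with DMSO (−1.75 ± 0.21, adjusted p = 0.00423). HO, the gene of the mating-type switching endonuclease, had 22.9 and 21.4 CPM with IAA, against 53.3 and 61.8 CPM with DMSO (−1.38 ± 0.12, adjusted p = 0.00151).

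The changes at 8 h were set beside those of the RNA libraries of 1 h, from the same strain given IAA or DMSO for 1 h and selected for poly(A). Across 5954 genes the log2 fold changes at both times had Pearson r of 0.58, and 473 of the 537 genes that rose at 8 h and were tested at 1 h, and 499 of the 521 that fell, had the same sign at 1 h. The difference between the times passed for 93 of 6451 genes, 61 with a more positive change at 8 h (0.946%) and 32 with a more negative one (0.496%), and for 22 to 47 when a library was left out. RNA selection and time cannot be told apart in it. With total-count scaling the counts were 23 and 54. Of the 10 arginine genes, with medians of 1.57 at 1 h and 1.75 at 8 h, 0 passed for it. ARO9 and ARO10 had larger rises at 1 h (2.44 and 3.08) than at 8 h (1.68 and 2.10), with adjusted p of 0.0387 and 0.0287 for the differences. The difference of ARO9 did not pass in any of the 4 fits without an 8 h RNA library (0.0731 to 0.139), and that of ARO10 did not pass in 3 of them (0.0511 to 0.0938).

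TIR1 and FIT1 also had a more negative change at 8 h than at 1 h. TIR1 changed by −0.70 at 1 h and −3.09 at 8 h (difference −2.40 ± 0.23, adjusted p = 0.00229). FIT1 changed by 0.02 at 1 h and −1.94 at 8 h (difference −1.98 ± 0.20, adjusted p = 0.00285). Methionine and SAM cycle genes had a median of −0.84 at 1 h and 0.18 at 8 h (0.04 without IAA replicate 1, 0.31 without IAA replicate 2), and 7 of 19 passed for the difference. STR3 was at −1.26 at 1 h and 1.70 at 8 h (difference 2.94 ± 0.33, adjusted p = 0.00505). MET17, which joins sulfide to a carbon chain, was at −1.68 at 1 h and 0.59 at 8 h (difference 2.26 ± 0.18, adjusted p = 0.00156), with 352 and 296 CPM with IAA, against 198 and 231 CPM with DMSO at 8 h. The 8 h rise of MET17 did not pass without IAA replicate 1 (0.156), IAA replicate 2 (0.0586) or DMSO replicate 1 (0.0703).

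Ribosome footprints of 8 h, fragments of mRNA covered by ribosomes, came from 4 further libraries with IAA or DMSO. The labels do not say whether RNA and footprint libraries of the same number came from the same culture. The test of their difference took all 8 libraries as independent, so its p-values hold only under that assumption. Across 5010 genes the RNA and footprint changes had Pearson r of 0.49. Of the 418 genes that rose in RNA and were tested in footprints 321 had the same sign there and 125 passed the same way, and of 497 that fell 410 and 203. Footprint and RNA changes differed for 339 of 5442 genes, 240 with a more positive footprint change (4.41%) and 99 with a more negative one (1.82%). These counts were 62 and 17 without RNA IAA replicate 2, 101 and 25 without RNA DMSO replicate 2, and 382 and 180 without RNA DMSO replicate 1. Among genes whose RNA fell, 71 of 499 had a more positive footprint change and 1 a more negative one, and among genes whose RNA rose 13 and 35 of 466. The RNA libraries enter both sides of that comparison, so the direction is set in part by shared values.

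**Figure D5:**
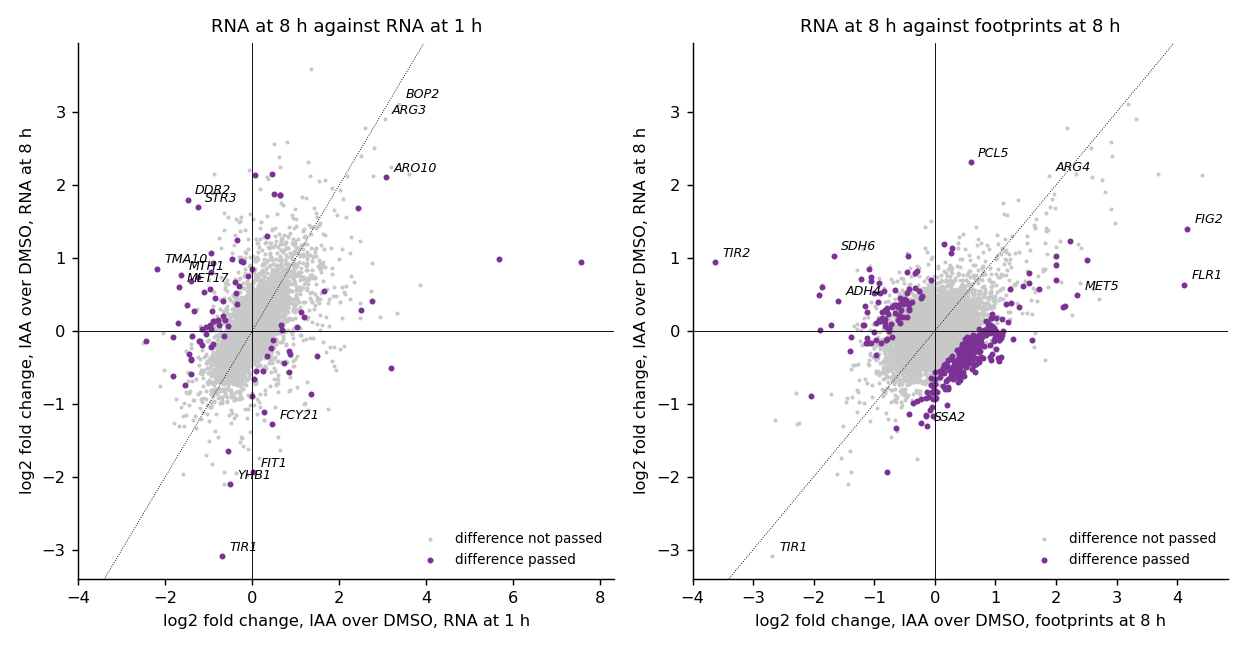
Log2 fold change of IAA over DMSO in RNA at 8 h (vertical) against that in RNA at 1 h (left, 5954 genes) and in footprints at 8 h (right, 5010 genes), with the line of equal change dotted and genes coloured where the difference between both changes passed. BOP2 and ARG3 lie near the line on the left at 1 h changes of 3.36 and 3.04, and PCL5 lies above it on the right, at 2.31 in RNA and 0.59 in footprints.

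PCL5 rose by 2.31 in RNA and stood at 0.59 in footprints (adjusted p = 0.14 there), and the difference of −1.70 ± 0.29 passed (adjusted p = 0.00367). GCN4 rose by 0.98 in RNA and 1.23 in footprints, and the difference did not pass (0.29 ± 0.30, adjusted p = 0.606). Chaperone genes had a median of −0.41 in RNA and 0.21 in footprints, and 15 of 25 passed for a more positive footprint change, among them HSP60, at −1.16 in RNA and −0.02 in footprints (difference 1.14 ± 0.19, adjusted p = 0.00365). For ribosomal proteins the medians were −0.14 in RNA and −0.44 in footprints, with 6 of 138 passing for a more negative footprint change. MET3 rose by 0.98 in RNA and 2.51 in footprints (difference 1.55 ± 0.33, adjusted p = 0.0112). TIR2 rose by 0.94 in RNA and fell by 3.63 in footprints (difference −4.53 ± 0.59, adjusted p = 0.000769). Sulfate assimilation as a list had medians of 0.93 in RNA and 1.59 in footprints, and the aminoacyl-tRNA synthetases of −0.30 in RNA (−0.11 without DMSO replicate 2) and 0.27 in footprints, with 12 of 22 passing for a more positive footprint change.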

How the data were processed

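Per the methods of the study, RNA was extracted with acid phenol from cell lysates. It was freed of ribosomal RNA (QIAseq FastSelect) at 8 h or selected with oligo(dT) at 1 h. Strand-specific libraries were then made (NEBNext Ultra II Directional). Tools listed in the submitters' notes on processing are STAR and cutadapt, and builds listed there are R64 and sacCer3, with no role or order. The values are counts of reads per gene as deposited by the authors, not normalized. Which program counted them, and with what strand setting, is not given in the sources used here. Overlapping and antisense genes may share reads, and near-identical copies may lose reads that match more than 1 of them. The summary lines of each file were left out of library sizes and tests.

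The 4 RNA libraries of 8 h were compared with edgeR 4.0.16 in R 4.3.3 (filterByExpr, TMM, quasi-likelihood test, Benjamini-Hochberg adjustment over all genes tested). The change was compared with that of 1 h, and with that of the footprints, by interaction terms over 8 libraries each. Standard errors were taken from the F statistics. DESeq2 1.42.0, other scalings, filters, samples, a replicate block and leaving out each 8 h RNA library were the alternatives. The test was also tried on counts simulated with the means, library sizes and dispersion of these data. With 2 libraries a group, p-values measure the spread between these libraries only. Promoter letters were read from the RefSeq genome of R64, in which 6048 features were matched by locus tag.

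The members and the 60 gene lists were chosen with earlier results of these data known. The rule for named genes took the genes of eIF4E, Gcn4, Pcl5, Aro80, ARO1, ARO9 and ARO10, the 15 largest rises and falls without overlap of groups (mean count 50 or above), up to 4 members of each list by adjusted p and up to 2 that passed against the list's median, all members of lists of 8 or fewer genes, and up to 5 genes in each direction of each interaction that also passed at 8 h. It gave 282 genes. Those in the text were picked from them after their values were seen, preferring calls that did not depend on a library.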

Additional observations from a re-analysis of the deposited data

Results flagged for a closer look

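The change with IAA at 8 h was compared with that at 1 h by a test of the difference itself (edgeR's quasi-likelihood test of the interaction, adjusted over 6451 genes). The 12 genes given here passed it and were taken by the naming rule as genes of the study or as the largest differences. Further members of the lists passed too, and so did OSI1, SNZ1, PLB2, MET16, SAM2 and MF(ALPHA)2 of the text. Each of those named lost its call when some 8 h RNA library was left out. Time and RNA selection cannot be told apart in these differences. With an 8 h RNA library left out, the differences of ARO9 (adjusted p of 0.0731 to 0.139), YHB1 (0.0633 to 0.178), PHO11 (0.0818 to 0.169), DDR2 (0.0687 to 0.139) and TMA10 (0.0818 to 0.146) did not pass in any of the 4 fits, and that of ARO10 did not pass in 3 of them (0.0511 to 0.0938). DDR2 and TMA10 did not pass with total-count scaling either (both 0.0514). TIR1, FIT1, FCY21, STR3, MTH1 and MET17 passed in all 4. A more negative change at 8 h was found for 7 of the 12. ARO10 differed by −0.99 (adjusted p = 0.0287) and ARO9 by −0.77 (adjusted p = 0.0387), both high at both times. TIR1 differed by −2.40 (adjusted p = 0.00229), FIT1 by −1.98 (adjusted p = 0.00285) and YHB1 by −1.60 (adjusted p = 0.0454). FCY21, a purine-cytosine permease, differed by −1.76 (adjusted p = 0.0115). PHO11, an acid phosphatase that may lose reads also matching PHO12, differed by −1.42 (adjusted p = 0.045).

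A more positive change at 8 h was found for the others. DDR2 differed by 3.26 (1.80 at 8 h, −1.48 at 1 h, adjusted p = 0.0411). TMA10, a ribosome-associated protein, differed by 3.03 (0.85 at 8 h, −2.19 at 1 h, adjusted p = 0.0389). STR3 differed by 2.94 (adjusted p = 0.00505), MTH1, a repressor of hexose transporter genes, by 2.39 (0.76 at 8 h, −1.64 at 1 h, adjusted p = 0.00229) and MET17 by 2.26 (adjusted p = 0.00156).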

How the results depend on the processing

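None of the 1076 calls at 8 h changed sign in any alternative run. Since the groups did not overlap in any of these genes, leaving out a library could hardly turn a sign. The falls numbered 797 with all 8 RNA libraries in one fit. Leaving out each 8 h RNA library gave 181 to 608 rises and 76 to 494 falls, or 179 to 492 rises and 76 to 297 falls with the minimum fold change, and the lone sample of an arm was then assumed to vary like the other arm. DESeq2 gave 385 rises and 558 falls. A fit with a replicate block gave 665 rises and 484 falls at 8 h. The deviations of same-numbered libraries had an r of 0.289 over 5493 genes, but with 2 pairs and no label of a shared batch the number is not taken as a pairing, and with the replicate block the difference between the times passed in 142 genes upwards and 81 downwards. That difference passed in 163 and 81 genes with DESeq2, in 23 and 54 with total-count scaling, and in 15 to 34 and 5 to 14 when a library was left out. The difference between footprints and RNA passed in 62 to 382 and 17 to 180 genes when a library was left out. The cause was not tested. Genes that had not passed changed sign when a library was left out: ARO80 lay between −0.000987 and 0.27, SNO2 between −0.16 and 0.64, SNO3 between −0.92 and 0.12, and HIS3 between −0.20 and 0.43. The fit on nuclear protein-coding genes was chosen after seeing the data. With 2 libraries a group, and a pair of DMSO libraries that differed in non-coding RNA, small changes of scarce RNAs are the least certain, and HIS3, SNO2 and SNO3 lay near the limit of detection.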
